A study of Mus musculus with 13 samples.

Results

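The genes described here encode ion exchangers, cation-chloride cotransporters, bicarbonate transporters and the P-type pumps of the surface membrane. They were taken by symbol from the deposited count table as every mouse gene of the families Atp1a, Atp1b, Atp2b, Slc8a, Slc24a, Slc9a, Slc4a and Slc12a, which gave 48 of the 55487 gene IDs. RNA was sequenced from flow-sorted pacemaker cells (PC) of the sinoatrial node and right atrial cardiomyocytes (RACM), with 3 libraries of each, titled p0, p2 and p4. All 6 libraries came from neonatal mouse hearts of the genotype Hcn4-GFP/Myh6-mCherry. The titles do not explain the p number, and the labels give no age beyond neonatal. Tissue from the junction of node and atrium of 8 to 10 hearts was pooled for each biological replicate, so 1 library is an average over animals. In such reporters green fluorescence marks cells that express the pacemaker channel gene Hcn4, and red fluorescence marks heart muscle. The 7 ATAC-seq samples of the series were not analysed here.

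These proteins set the sodium, calcium, potassium, chloride and proton gradients on which cardiac electrical activity runs. The sodium-potassium pump, built from an alpha subunit (Atp1a) that splits ATP and a beta subunit (Atp1b) that carries it to the surface, exports sodium and imports potassium. The sodium-calcium exchanger (Slc8a) and its potassium-dependent relatives (Slc24a) use the sodium gradient to remove calcium, a task the plasma membrane calcium pump (Atp2b) also serves. In sinoatrial cells the inward current of sodium-calcium exchange is a known part of the slow depolarisation between beats. Sodium-proton exchangers (Slc9a) and bicarbonate transporters (Slc4a) control pH, and cation-chloride cotransporters (Slc12a) set chloride and cell volume.

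Libraries held between 14141151 and 22290996 counts. The sort labels went with the pacemaker markers and with most right atrial markers. All 6 pacemaker markers examined (Isl1, Hcn4, Shox2, Tbx3, Tbx18 and Smoc2) were higher in PC. Hcn4 is also the gene of the green reporter, so its difference is not independent of the sort. Of 6 right atrial markers, 4 (Nppa, Gja5, Bmp10 and Nkx2-5) were lower. Myl4 and Myl7 of that list ran the other way, with every PC library above every RACM library. Their log2 fold changes (PC minus RACM) were 0.38 and 0.50, with edgeR adjusted p = 0.304 and 0.15. Levels are given as CPM, the count of a gene scaled to its library's total. The sum of 8 fibroblast markers, all of them detected, ran from 847 to 2174 CPM over the PC libraries, whereas in RACM it ran from 1600 to 10723 CPM and was highest in p4. The 7 macrophage markers summed to between 7.01 and 28.4 CPM in PC and between 98.4 and 436 CPM in RACM. Endothelial markers summed to between 38.9 and 96.4 CPM in PC and between 91.5 and 155 CPM in RACM, and epicardial markers did not exceed 7.24 CPM in any library. The 4 heart muscle markers Tnnt2, Actc1, Ryr2 and Myh6 summed to between 52405 and 63812 CPM in PC, against between 30830 and 49760 CPM in RACM. Tnnt2 and Actc1 were above RACM in every PC library (log2 fold change 0.79 and 0.87, edgeR adjusted p = 0.0936 and 0.0555). Ryr2 and Myh6 overlapped between the sorts (0.03 and 0.04). Levels given below relative to all 4 thus divide by a sum that is higher in PC. Because each library is a bulk sample of sorted cells, fewer cells of a type and less RNA per cell cannot be told apart.

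Of the 48 genes, 38 passed the filter on low counts and were tested between PC and RACM. With edgeR's quasi-likelihood test at an adjusted p below 0.05, the level at which a gene is said to be called or to pass, 7 of the 38 (18.4%) were higher in PC and 0 were lower. Over all 18015 genes tested, 7.27% were called, 3.69% higher and 3.57% lower in PC. The median log2 fold change (PC minus RACM) was 0.36 over the 38 members and 0.01 over all genes tested. The only member lower in PC at an unadjusted p below 0.05 was Atp2b1, and DESeq2 and limma-voom also called 0 members lower. Of the 7 higher genes, 5 are described (Slc24a2, Atp1b1, Atp1b2, Slc24a3 and Atp2b2). The PC and RACM libraries did not overlap for 11 of the 38 members (28.9%), all with PC above, against 26.9% of all genes tested, 13.5% with PC above and 13.4% with PC below. The number of members called higher was 2 without PC p0 or without RACM p2, and 4 without PC p2, RACM p0 or RACM p4. It was 4 without both p4 libraries, including Slc24a4, which is not among the 7.

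**Figure D1:**
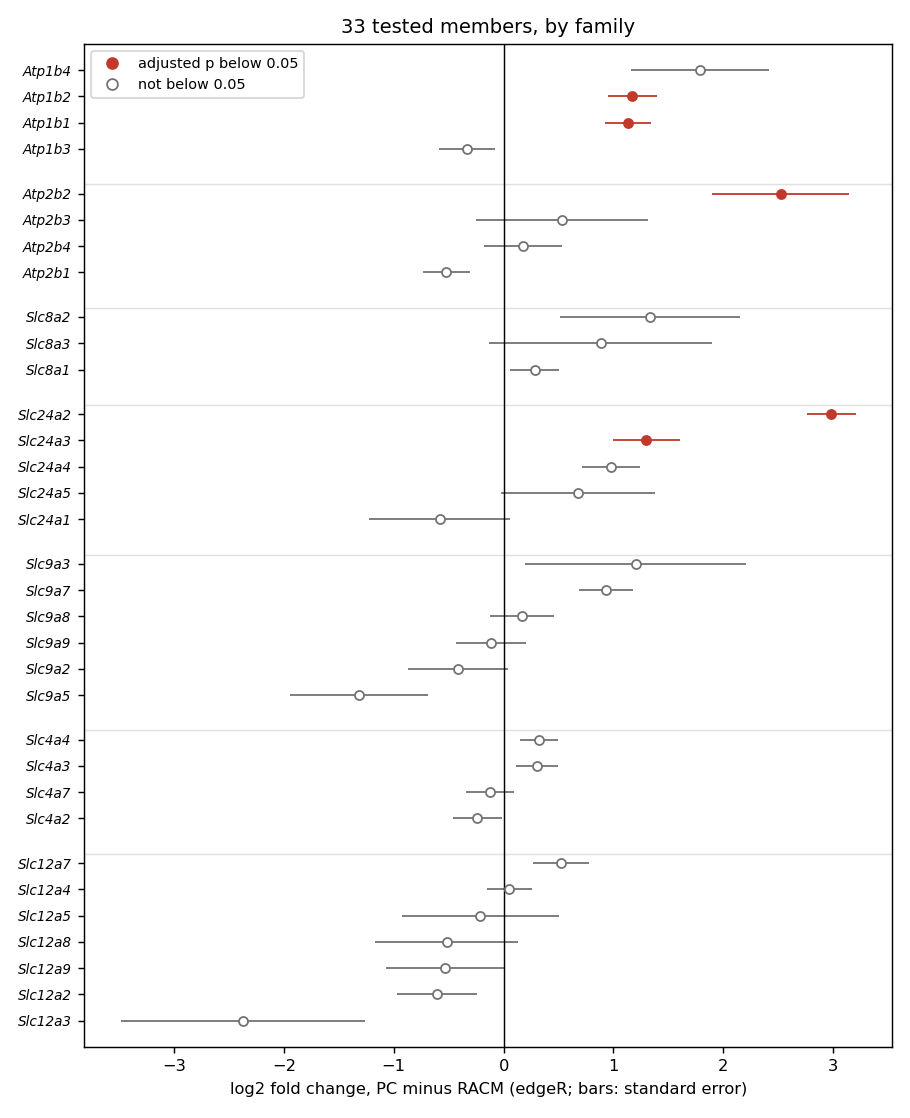
Log2 fold change of PC minus RACM (x axis) for 33 tested members, grouped by family down the page, with standard errors as bars and filled red points for an adjusted p below 0.05. The 5 red points all lie right of 0, from Slc24a2 at 2.98 down to Atp1b1 at 1.13, and belong to the Atp1b, Atp2b and Slc24a families.

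Windows of 250 bases upstream of the start site are printed for Slc24a2, the member with the largest rise, Atp1b1, the most abundant riser described, and Slc8a1, the most abundant of the 48 genes by CPM, so that the gene that did not pass can be set beside those that did. They come from RefSeq on build GRCm38.p6, all on the minus strand, 5′ to 3′ in the direction of transcription. Capitals mark a GATA factor motif, AGATAA, a GC box, spelled GGGCGG, and the motif known as CCAAT, on either strand.
Slc24a2, chr4:87230541-87230790: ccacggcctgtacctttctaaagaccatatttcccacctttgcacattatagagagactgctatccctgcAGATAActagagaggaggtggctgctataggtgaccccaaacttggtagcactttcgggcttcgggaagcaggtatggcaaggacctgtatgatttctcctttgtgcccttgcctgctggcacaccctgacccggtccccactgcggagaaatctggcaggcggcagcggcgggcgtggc
Atp1b1, chr1:164458356-164458605: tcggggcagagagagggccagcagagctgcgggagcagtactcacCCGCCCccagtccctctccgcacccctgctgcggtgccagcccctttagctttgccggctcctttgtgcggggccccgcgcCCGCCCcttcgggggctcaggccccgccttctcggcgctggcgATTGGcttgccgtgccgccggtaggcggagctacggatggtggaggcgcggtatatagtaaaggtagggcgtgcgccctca
Slc8a1, chr17:81738388-81738637: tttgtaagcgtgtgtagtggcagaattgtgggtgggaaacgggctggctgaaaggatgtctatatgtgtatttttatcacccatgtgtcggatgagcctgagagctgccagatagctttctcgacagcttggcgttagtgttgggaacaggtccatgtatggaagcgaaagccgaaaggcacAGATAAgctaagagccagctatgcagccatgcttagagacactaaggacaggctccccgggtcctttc
Of all 32851 such windows in the RefSeq table, AGATAA was found in 9.99%, while the GC box was in 32.7% and the CCAAT motif in 33.8%, on either strand. AGATAA began 180 bases before the start in the Slc24a2 window and 68 bases before it in that of Slc8a1, and the Atp1b1 window had none. The Atp1b1 window held GGGCGG on the opposite strand at 205 and 124 bases and the reverse complement of CCAAT at 81 bases before the start. The T-box motif GGTGTGA, found in 3.33% of all windows, was in none of the windows of the 34 members that matched the table, and TATAAA, found in 12.4%, was in none of the 3 windows printed. The RefSeq table matched 4 of the 7 risers (Atp1b1, Atp2b2, Slc24a2 and Slc24a3) and lists 2 start sites for Slc24a2, of which the upstream one is shown. The window of its other start site holds TATAAA on the opposite strand, as well as the CCAAT motif and, on the opposite strand, AGATAA. No motif here overlapped another. A match is a stretch of letters and was not examined as a binding site.

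Among the calcium exchangers, Slc24a2 stood out by size of change. It encodes a potassium-dependent sodium-calcium exchanger known from neurons and cone photoreceptors, and lies on mm10 chromosome 4 from 86983124 to 87230477, minus strand (ENSMUSG00000037996). The p0, p2 and p4 libraries of PC had 288, 331 and 239 CPM of it, and those of RACM 39.9, 41.7 and 26.9 CPM, an order of libraries kept throughout. Every PC library lay above every RACM library. The log2 fold change was 2.98 ± 0.22 (± SE, edgeR adjusted p = 0.00015). Slc24a2 passed under all 14 alternatives run, which were other scalings, filters and tools, a replicate block by p number and libraries left out. Summed neuron markers were low in both sorts, at 9.25, 7.07 and 3.64 CPM in PC and 7.46, 5.32 and 4.91 CPM in RACM, with 0 of the 3 high enough to test called. The sum joins genes of unlike direction. Syt1 was higher in every PC library (log2 fold change 2.64, edgeR adjusted p = 0.198). Elavl4 had a log2 fold change of -0.55 (0.658) and Tubb3 one of 0.15 (0.902). Their part in the level of Slc24a2 was not tested.

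Of its 4 relatives, Slc24a3 was also called higher in PC, and Slc24a4 was not. Slc24a3, an exchanger known from brain and smooth muscle, was at 10.9, 11.5 and 9.87 CPM in PC, against 3.94, 4.31 and 4.86 CPM in RACM. The groups did not overlap, and the log2 fold change was 1.30 ± 0.31 (edgeR adjusted p = 0.0378), a call lost without any 1 of the 6 libraries (adjusted p from 0.059 to 0.147). Beside it, the sum of smooth muscle and pericyte genes was 664, 424 and 701 CPM in PC and 202, 268 and 601 CPM in RACM. That sum joins genes of unlike direction, and Acta2 alone, not called, had 482, 302 and 534 CPM of it in PC. Of the 8 genes, 3 were called higher in PC (Myh11, Cnn1 and Cspg4) and 1 lower (Pdgfrb). Rgs5 and Kcnj8, not called, were also lower in every PC library than in any RACM library. The part of these genes in the difference of Slc24a3 was not tested. Slc24a4, an exchanger known from enamel-forming cells and olfactory neurons, was at 85.6, 107 and 62.5 CPM in PC and 52.7, 47.0 and 29.5 CPM in RACM. No PC library overlapped a RACM library, but the gene did not pass (log2 fold change 0.98 ± 0.26, edgeR adjusted p = 0.0595). It passed with the p number as a block (adjusted p = 0.00767), by DESeq2 (0.00804), with no filter (0.00231) and with the stricter filter (0.0496). It also passed without PC p4 (0.0445) and without both p4 libraries (0.0467). Relative to the 4 heart muscle markers its groups overlapped, with PC p4 at 1.16 CPM per 1000 CPM and RACM p2 at 1.19, and relative to Ryr2 and Myh6 alone they did not. Slc24a1 of rod photoreceptors and Slc24a5 of pigment cells did not exceed 2.36 CPM in any library, and neither passed. The level of Slc24a5 is uncertain, since reads were counted without strand and 39.5% of its exon bases are shared with Myef2 on the opposite strand. Myef2 had 3478 counts in all, where Slc24a5 had 59 in PC and 35 in RACM.

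The make-up of the family differed between the sorts. Per kilobase of exon, so that genes of unequal length can be compared, the Slc24a genes together had 45.6, 54.0 and 36.1 CPM per kilobase in PC, against 16.2, 15.4 and 10.5 in RACM. Slc24a2 took 51.7%, 50.2% and 54.2% of that sum in the PC libraries and 20.2%, 22.1% and 20.9% in the RACM libraries. Slc24a4 took 41.5%, 43.7% and 38.4% in PC and 72.1%, 67.4% and 62.0% in RACM. Thus Slc24a2 led the family in every PC library and Slc24a4 in every RACM library. Since an exact permutation test on 3 against 3 libraries has 0.1 as its smallest p, these shares carry none, and the Slc24a shares were added after its values were seen.

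Slc8a1, the main cardiac sodium-calcium exchanger (chromosome 17 from 81373105 to 81738377, minus strand), was abundant in both sorts. It was at 2045, 1772 and 1412 CPM in PC, and at 1776, 1403 and 1113 CPM in RACM. The groups overlapped, and within each sort the p4 library was lowest. The log2 fold change was 0.28 ± 0.22 with a 95% interval from -0.22 to 0.79 (edgeR adjusted p = 0.537), so neither a modest rise nor a small fall lies outside the interval. Relative to the 4 heart muscle markers, Slc8a1 was at 32.0, 33.8 and 26.2 CPM per 1000 CPM in PC and at 35.7, 35.5 and 36.1 CPM per 1000 CPM in RACM, so that the PC libraries then lay lower. Relative to Ryr2 and Myh6 alone, it was at 90.8, 90.8 and 80.0 in PC, against 74.4, 68.1 and 81.6 in RACM, where the groups overlap, so this order depends on the marker genes chosen. Slc8a1 made up 99.0% of the summed level per kilobase of its family in PC and 99.5% in RACM (means of 3). Slc8a2 and Slc8a3, exchangers known from brain, did not exceed 4.16 CPM in any library and did not pass.

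**Figure D2:**
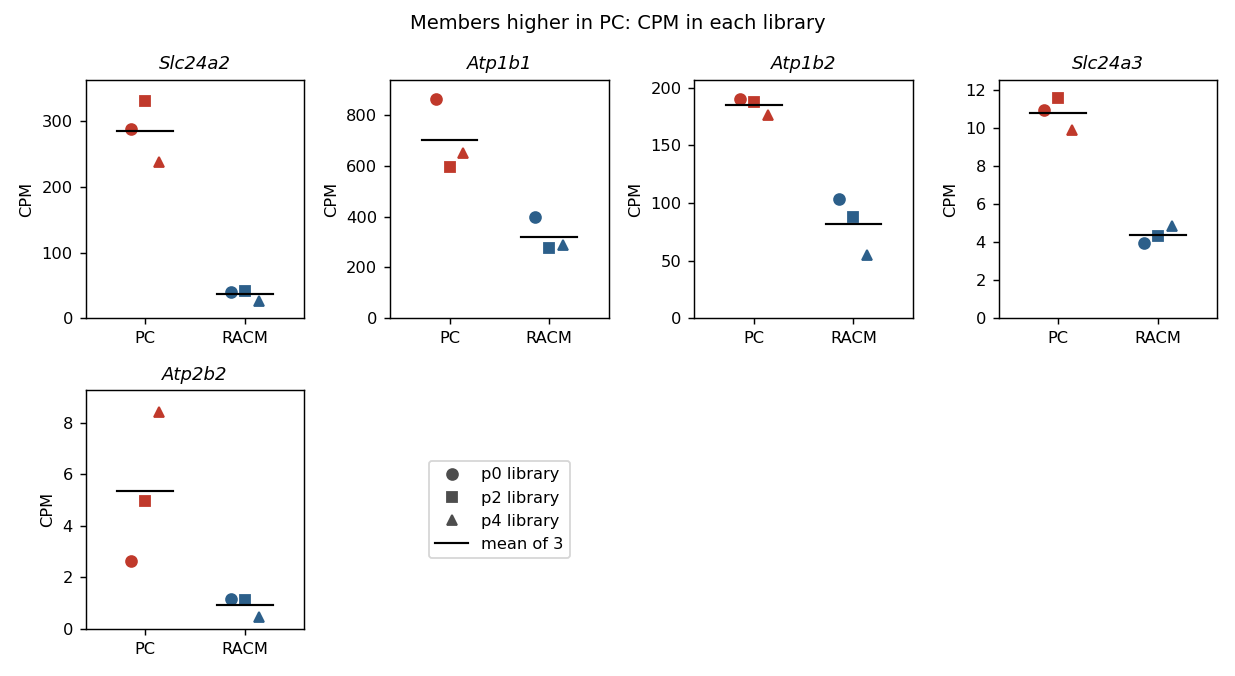
CPM (y axis, linear from 0) of 5 members called higher in PC, with the 3 PC libraries left of the 3 RACM libraries in each panel, symbols for the p number and a bar at the mean. No PC library overlaps a RACM library in any panel, and the fold change is largest for Slc24a2, at a mean of 286 CPM in PC and 36.2 CPM in RACM.

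Of the 4 beta subunit genes of the sodium-potassium pump, Atp1b1 and Atp1b2 rose in PC by about the same amount. Atp1b1, the widespread beta subunit (chromosome 1 from 164437109 to 164458355, minus strand), was at 864, 594 and 649 CPM in PC and at 397, 274 and 288 CPM in RACM. In both sorts p0 was the highest library, and the groups did not overlap. The log2 fold change was 1.13 ± 0.21 (edgeR adjusted p = 0.015). Its call ended when PC p0 (0.0648) or RACM p2 (0.0817) was left out, and without both p4 libraries (0.056). Reads were counted without strand, and 18.7% of its exon bases are shared with Nme7 on the opposite strand, which had 724 counts in all where Atp1b1 had 39735 in PC and 16328 in RACM.

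Atp1b2, a beta subunit that also acts as an adhesion molecule on glia, was at 190, 188 and 176 CPM in PC, against 103, 87.6 and 55.0 CPM in RACM. The PC libraries lay close together and all above RACM, by 1.17 ± 0.22 on the log2 scale (edgeR adjusted p = 0.0168), lost without PC p0 or without RACM p2 (0.0653 each). Summed Schwann cell markers, the glia of peripheral nerve, were at 3.23, 10.9 and 7.18 CPM in PC and 5.73, 6.28 and 7.26 CPM in RACM, with 0 of the 2 tested called. Relative to the 4 heart muscle markers, and to Ryr2 and Myh6 alone, Atp1b1 and Atp1b2 stayed higher in every PC library than in any RACM library.

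Atp1b3, another widespread beta subunit, was not called. It was at 58.0, 33.7 and 70.6 CPM in PC and 67.3, 63.3 and 73.6 CPM in RACM, groups that overlap (log2 fold change -0.33 ± 0.25, edgeR adjusted p = 0.528). Relative to the 4 heart muscle markers it was at 0.909, 0.642 and 1.31 CPM per 1000 CPM in PC, against 1.35, 1.605 and 2.39 in RACM, with every PC library lower, whereas relative to Ryr2 and Myh6 alone the groups overlapped. Its share of the beta subunit sum per kilobase was 6.89%, 5.55% and 10.4% in PC, against 15.4%, 19.3% and 22.3% in RACM, where no PC library reached the lowest RACM value. The share of Atp1b1 was 79.7%, 75.9% and 74.2% in PC and 70.6%, 64.8% and 67.7% in RACM. Atp1b4, a muscle relative that in placental mammals is known from the inner nuclear membrane and not as a pump subunit, was at 3.12, 4.86 and 2.27 CPM in PC and 0.414, 1.32 and 1.203 CPM in RACM, which did not pass (edgeR adjusted p = 0.132).

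**Figure D3:**
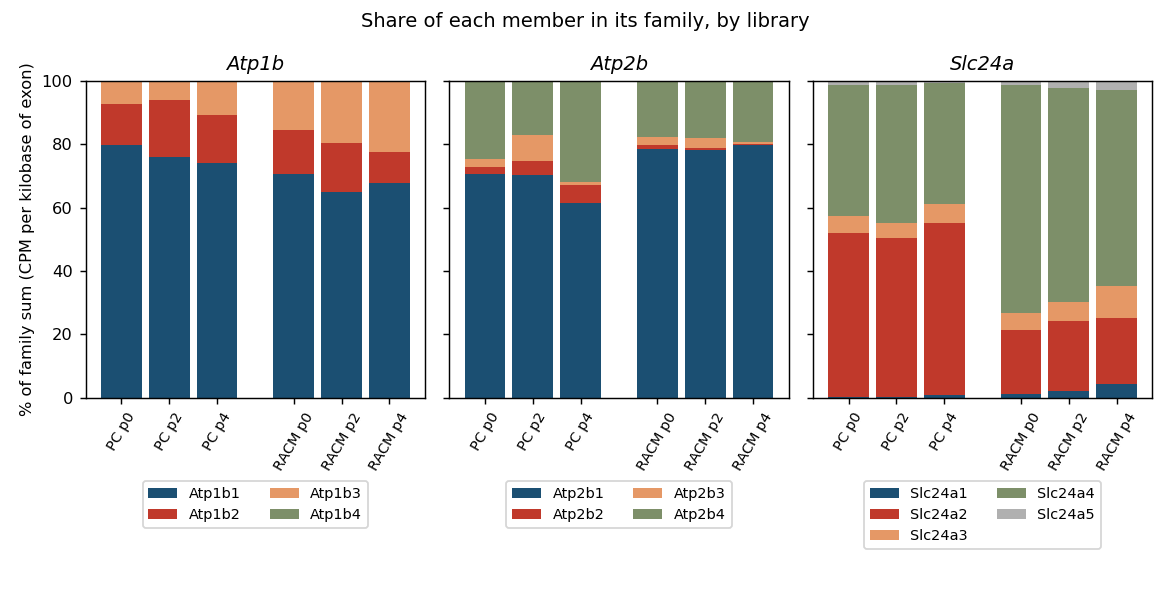
Share of each member in the summed level of its family, in percent of CPM per kilobase of exon (y axis), for the Atp1b, Atp2b and Slc24a families in each PC library and, to the right, each RACM library. Slc24a2 fills 50.2% to 54.2% of the Slc24a bar in PC and 20.2% to 22.1% in RACM, and Atp1b3 fills less of the Atp1b bar in every PC library than in any RACM library.

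Of the 4 plasma membrane calcium pumps, 1 was called. Atp2b2, a fast pump known from neurons and inner ear hair cells (chromosome 6 from 113743831 to 114042613, minus strand), was low in both sorts, at 2.62, 4.98 and 8.41 CPM in PC and 1.17, 1.14 and 0.481 CPM in RACM. All PC libraries lay above all RACM libraries, and PC p4 was the highest. On the log2 scale the difference was 2.52 ± 0.62 (edgeR adjusted p = 0.043). The call was lost without any 1 of the 6 libraries (adjusted p from 0.0526 to 0.132), with the p number as a block (adjusted p = 0.0625) and by limma-voom (0.081). Without both p4 libraries the difference was 1.69 (adjusted p = 0.265).

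Atp2b1, the widespread form and the most abundant of the family per kilobase, was at 107, 92.2 and 109 CPM in PC and 106, 146 and 191 CPM in RACM. RACM p0 lay within the PC range and the other RACM libraries above it, and the difference did not pass (log2 fold change -0.52 ± 0.22, edgeR adjusted p = 0.209). In PC the fibroblast sum was 847, 960 and 2174 CPM and the macrophage sum between 7.01 and 28.4 CPM. In RACM the fibroblast sum was 1600, 3687 and 10723 CPM and that of macrophage genes was 98.4, 265 and 436 CPM. Of these lists 1 of 8 and 6 of 7 genes were called lower in PC, and their part in the level of Atp2b1 was not tested. Relative to the 4 heart muscle markers every PC library of Atp2b1 lay below every RACM library, at a mean of 1.82 CPM per 1000 CPM in PC and 4.01 in RACM, and relative to Ryr2 and Myh6 alone the groups overlapped. Atp2b1 held 70.8%, 70.3% and 61.3% of its family per kilobase in PC, against 78.6%, 78.2% and 79.9% in RACM. Atp2b4, a form known for its part in signalling in heart muscle, was at 30.0, 17.9 and 45.6 CPM in PC and 19.0, 27.0 and 36.8 CPM in RACM, and did not pass (log2 fold change 0.18 ± 0.35, edgeR adjusted p = 0.836). Its sign turned without PC p4 (-0.20) and without RACM p0 (-0.02). Atp2b3 of neurons did not exceed 3.39 CPM in any library.

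Among the sodium-proton exchangers, Slc9a7 of the trans-Golgi network was at 30.3, 37.0 and 23.1 CPM in PC and 19.3, 14.9 and 13.2 CPM in RACM. The groups did not overlap, but the gene did not pass (log2 fold change 0.93 ± 0.25, edgeR adjusted p = 0.056). It passed with the p number as a block (adjusted p = 0.0275), by DESeq2 (0.0124), with no filter (0.0199) and without PC p4 (0.0457). Slc9a8 of the Golgi was at 22.5, 31.9 and 52.6 CPM in PC and 32.9, 33.6 and 28.9 CPM in RACM (log2 fold change 0.17 ± 0.29, edgeR adjusted p = 0.808). The sign turned without PC p4 (-0.22) and without both p4 libraries (-0.31). The groups overlapped, and PC held both the lowest and the highest library. Slc9a9, an endosomal form, stayed between 8.84 and 18.7 CPM and Slc9a2 of epithelia between 3.07 and 12.02 CPM over the 6 libraries. Slc9a3 of kidney and gut and Slc9a5 of brain did not exceed 5.00 CPM, and Slc9a4 of the stomach, with 19 counts in all, was not tested. None of these passed.

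**Figure D4:**
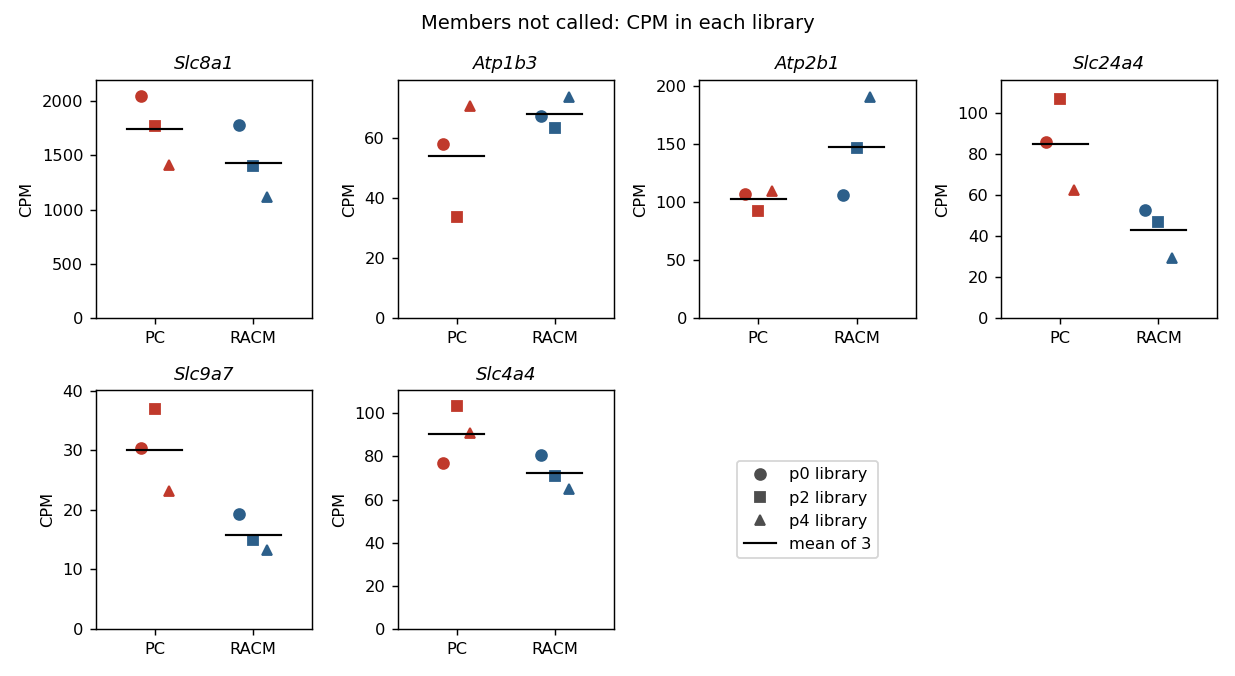
CPM (y axis, linear from 0) of 6 members that were not called, with PC left of RACM in each panel, symbols for the p number and a bar at the mean. Slc24a4 and Slc9a7 have all PC libraries above all RACM libraries, Slc8a1, Atp1b3 and Slc4a4 have overlapping groups, and in Atp2b1 the RACM libraries spread from 106 to 191 CPM.

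No bicarbonate transporter of the Slc4a family was called, of 4 tested. Slc4a4, an electrogenic sodium-bicarbonate cotransporter of heart muscle and kidney, was at 76.8, 103 and 90.8 CPM in PC and 80.9, 71.1 and 64.9 CPM in RACM (log2 fold change 0.32 ± 0.17, edgeR adjusted p = 0.34). Slc4a3, the chloride-bicarbonate exchanger best known from heart and brain, was at 55.8, 73.4 and 61.4 CPM in PC and 56.8, 56.1 and 41.8 CPM in RACM (log2 fold change 0.30 ± 0.19, adjusted p = 0.423). In both genes the PC p0 library lay below the highest RACM library. Slc4a7, an electroneutral sodium-bicarbonate cotransporter, was at 59.0, 39.3 and 35.1 CPM in PC and 49.9, 47.0 and 48.4 CPM in RACM (log2 fold change -0.12 ± 0.22, adjusted p = 0.81). The sign turned without PC p4 (0.03). Relative to the 4 heart muscle markers every PC library of Slc4a7 lay below every RACM library, and relative to Ryr2 and Myh6 alone the groups overlapped.

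The widespread chloride-bicarbonate exchanger Slc4a2 was at 20.0, 27.3 and 17.6 CPM in PC and 23.7, 27.6 and 25.3 CPM in RACM (log2 fold change -0.24 ± 0.22, adjusted p = 0.616). It is uncertain, since 13.7% of its exon bases lie in other genes, mainly Fastk on the opposite strand, and these had 9517 counts in all. The other Slc4a genes were too low to test. Slc4a1, the anion exchanger of red cells, had 6 counts over the PC libraries and 14 over the RACM libraries, while summed red cell markers were at 64.1, 0.396 and 18.8 CPM in PC and 97.0, 13.2 and 67.1 CPM in RACM. Slc4a5, Slc4a8, Slc4a9, Slc4a10 and Slc4a11 had at most 54 counts each over all 6 libraries.

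None of the cation-chloride cotransporters described here was called either. Slc12a4, a potassium-chloride cotransporter that exports chloride, was at 37.96, 26.5 and 37.8 CPM in PC and 31.4, 30.9 and 36.2 CPM in RACM. Its difference on the log2 scale, 0.05 ± 0.20 (edgeR adjusted p = 0.917), was small, and the sign turned with upper-quartile scaling (-0.002), without PC p0 (-0.03) and without PC p4 (-0.02). Slc12a7, another such exporter, was at 73.0, 48.0 and 41.7 CPM in PC and 47.3, 35.2 and 30.9 CPM in RACM (log2 fold change 0.52 ± 0.25, adjusted p = 0.288). In both genes the groups overlapped.

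Slc12a2, the sodium-potassium-chloride cotransporter that brings chloride into cells, was at 11.7, 14.0 and 5.57 CPM in PC and 12.2, 17.3 and 18.0 CPM in RACM. Its groups overlapped, and it did not pass (edgeR adjusted p = 0.398). Slc12a9 stayed between 2.03 and 11.1 CPM. Slc12a5 of neurons, Slc12a8 and Slc12a3, the thiazide-sensitive cotransporter of kidney, did not exceed 5.80 CPM, a level Slc12a3 reached in RACM p0. Slc12a1, the loop-diuretic target of kidney, had 0 counts in every library.

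Set side by side per kilobase of exon, the beta subunits led the families Atp1b, Slc8a, Slc24a, Slc9a, Slc4a, Slc12a and Atp2b in both sorts, with a mean sum of 297 CPM per kilobase in PC and 153 in RACM. Slc8a followed with 93.5 in PC and 76.4 in RACM. Slc24a came next in PC at 45.2 and stood at 14.0 in RACM, where Slc9a (35.9 in PC and 25.2 in RACM), Slc4a (21.2 in PC and 18.9 in RACM) and Slc12a (19.9 in PC and 18.5 in RACM) all lay above it. By these means Atp2b was lowest in both, with 10.1 CPM per kilobase in PC and 12.3 in RACM. In the RACM p4 library, however, Slc24a at 10.5 lay below Atp2b at 15.7.

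Genes that work with these transporters were examined from lists taken from general knowledge. Of the calcium pump's partner subunits, 1 of 2 was higher: neuroplastin, Nptn, was at 255, 255 and 270 CPM in PC and 95.1, 86.6 and 96.1 CPM in RACM. The groups were 1.49 ± 0.14 apart on the log2 scale (edgeR adjusted p = 0.000557), a call that held under all 14 alternatives run. Basigin, Bsg, did not pass (adjusted p = 0.408, log2 fold change 0.33 ± 0.20). Of the 5 tested FXYD genes, small regulators of the sodium-potassium pump, 1 was lower and none higher in PC. That gene, Fxyd5, was at 3.07, 0.226 and 1.18 CPM in PC and 7.87, 10.9 and 18.8 CPM in RACM (log2 fold change -3.07 ± 0.76, edgeR adjusted p = 0.0435). Leaving out any 1 library other than PC p0 ended the call (0.0521 to 0.127). Without PC p0 the log2 fold change was -4.12 (adjusted p = 0.0373), and without both p4 libraries it was -2.54 (0.205). Its highest library was RACM p4, as for the fibroblast and macrophage sums given above, whose part in it was not tested. Fxyd1, phospholemman of heart muscle, was at 271, 304 and 377 CPM in PC and 230, 245 and 239 CPM in RACM and did not pass (adjusted p = 0.188, log2 fold change 0.41 ± 0.17).

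Of the 2 tested genes among other sodium exchangers, Slc8b1, the mitochondrial sodium-calcium exchanger, was lower in PC. It was at 0.279, 0.396 and 0.142 CPM in PC and 2.28, 3.17 and 4.67 CPM in RACM (log2 fold change -3.61 ± 0.67, edgeR adjusted p = 0.015). Leaving out PC p0 (0.0611), RACM p2 (0.0639), RACM p4 (0.0787) or both p4 libraries ended that call. Both levels are low, and RACM p4 was again the highest library. Of 5 tested partners of the sodium-proton exchangers, the membrane-cytoskeleton linker Ezr was higher, at 144, 160 and 162 CPM in PC and 102, 88.9 and 76.9 CPM in RACM (log2 fold change 0.80 ± 0.16, adjusted p = 0.0204, lost without any 1 library except RACM p0, at 0.0531 to 0.101). Of 5 genes of lactate-proton cotransport and the vacuolar proton pump, Atp6v0a2 was higher, at 72.2, 67.7 and 88.3 CPM in PC and 50.2, 39.5 and 44.6 CPM in RACM (log2 fold change 0.77 ± 0.18, adjusted p = 0.0345, lost without any 1 library except RACM p0, at 0.0552 to 0.162). None of 4 tested other P-type pumps, 6 genes of the WNK pathway that controls Slc12a transport, or 9 carbonic anhydrases passed. The reticulum pump Atp2a2 was by far the highest of these, at 13224.5, 10775 and 10713 CPM in PC and 11402.5, 9204 and 7660 CPM in RACM (log2 fold change 0.30 ± 0.22, adjusted p = 0.502).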

How the data were processed

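The authors deposited raw fragment counts over mm10 exons, made with featureCounts 2.0.1, read pairs, no strand option, per the file headers. Per the submitters' processing notes, Trimmomatic, HISAT2 and edgeR were used, with no version stated. Per the labels' protocols, cDNA was amplified by an Ovation kit and read as paired 100-bp reads. The exon length in the same deposited table is in bases. Gene IDs matched a symbol for 55141 of 55487.

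Counts were filtered with filterByExpr (minimum count 10, minimum total 15), scaled by TMM and tested on all 18015 genes left with edgeR 4.0.16 (glmQLFit, glmQLFTest, 2-sided, Benjamini-Hochberg, threshold 0.05) in R 4.3.3, without covariates. Differences are PC minus RACM. CPM used TMM-scaled totals. Total counts per library and replicate spread set the precision, and counts of amplified reads are not independent molecules. No libraries were near-identical (chi-square per degree of freedom from 28.7 to 74.0). Deviations from the mean of each sort correlated by 0.156, 0.234 and 0.237 for p0, p2 and p4, each above 0.1. The numbers may thus pair the libraries, which rests on the data alone and not on the labels. The test reported here does not use such a pairing. It enters only in the alternative with a replicate block, where 2082 genes were called, against 1309 as reported. The test was also run on simulated counts, drawn from its own fit with no pairing by p number. That run cannot show how a pairing would affect the calls.

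Members and lists were chosen with earlier results of these data known. Members called, or at 20 CPM or more on average in a sort, have values in every library, the others ranges, except Atp1b4 and Slc12a2. Results of some members are not reported here. Called partner genes were all named, and other genes named were chosen after their values were seen. The alternatives tried were scaling by RLE or by the upper quartile, no filter, a stricter filter (5 CPM in all libraries of 1 sort), the replicate block, DESeq2 1.42.0, limma-voom (limma 3.58.1), each library left out and, chosen after seeing the data, both p4 libraries left out. Levels relative to heart muscle markers were also added then.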

Additional observations from a re-analysis of the deposited data

How the results depend on the processing

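Slc24a2 was called higher in PC under every alternative run. The number of members called higher was 7 in the analysis as reported, 7 with RLE scaling, upper-quartile scaling and the stricter filter, 8 with the replicate block, 9 with no filter and by DESeq2, 6 by limma-voom, 4 without both p4 libraries, and between 2 and 6 with 1 library left out. These counts do not always hold the same genes. The stricter filter removed Atp2b2, while Slc24a4 passed (edgeR adjusted p = 0.0496). Without PC p4, Slc24a4 (0.0445) and Slc9a7 (0.0457) passed, but Slc24a3 (0.059) and Atp2b2 (0.113) did not. Without both p4 libraries Slc24a4 passed (0.0467), but Atp1b1 (0.056), Slc24a3 (0.105) and Atp2b2 (0.265) did not. The number called lower was 0 in each alternative. Of all genes, 1309 were called as reported, 2339 with no filter, 2082 with the replicate block, 2304 by DESeq2, 734 without both p4 libraries and between 511 and 1338 with 1 library left out. The pairing through the replicate block took away the call of Atp2b2 and added Slc24a4 and Slc9a7. Leaving out libraries leaves fewer samples, and the cause of the other shifts was not tested.

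The log2 fold change turned for Slc12a4 with upper-quartile scaling (-0.0024), without PC p0 (-0.029) and without PC p4 (-0.023), for Atp2b4 without PC p4 (-0.198) and without RACM p0 (-0.024), for Slc4a7 without PC p4 (0.029) and for Slc9a8 without PC p4 (-0.221) and without both p4 libraries (-0.313). With 1 library left out, the values ran from -0.029 to 0.215 for Slc12a4, from -0.198 to 0.462 for Atp2b4, from -0.380 to 0.029 for Slc4a7 and from -0.221 to 0.414 for Slc9a8. The scaling moved the median of all genes by -0.0126 (RLE) and -0.0548 (upper quartile). None of these genes was called.

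Taking shares from CPM with no division by length gave, in PC and RACM, 74.68% and 42.10% for Slc24a2, 21.91% and 49.65% for Slc24a4, 73.49% and 83.21% for Atp2b1 and 99.72% and 99.85% for Slc8a1, and 14.76% for Atp1b3 in RACM. Long genes weigh more by that measure. Depth limits most the members below 20 CPM, 15 of which were tested and not called, and the 10 too low to test.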
